A study of Rattus norvegicus with 6 samples.

Results

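The genes described here encode aldehyde dehydrogenases, enzymes that oxidise aldehydes to the matching acids with NAD or NADP as the acceptor. They were chosen by family around Aldh2, which was selected on its measured difference between the groups compared here, as the largest of the rises that an earlier account of these data named. The list held 10 genes, of which 9 were measured, out of 18166 genes tested. They were Aldh2, Aldh1a1, Aldh1a2, Aldh1b1, Aldh3a2, Aldh5a1, Aldh6a1, Aldh7a1 and Aldh9a1, each on 1 probe set, a group of array probes summarised to 1 signal. Aldh1l1, the tenth gene, had no probe set with that symbol as its only name in the annotation used and is not analysed here.

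Aldehydes arise in all cells from the breakdown of amines, amino acids, sugars and oxidised membrane lipids, and they bind to proteins and DNA when they are not removed. Members of the family work in separate compartments and on separate substrates. Some of them clear toxic products such as acetaldehyde and 4-hydroxynonenal, others complete the breakdown of GABA, valine or lysine, and the retinaldehyde dehydrogenases make retinoic acid, a hormone that acts through nuclear receptors. In the brain, dopamine and noradrenaline are broken down through aldehyde intermediates that these enzymes also oxidise.

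The samples were hippocampal neurons of rat embryos at day 18, cultured with 10 µM of 5-fluorodeoxyuridine, which acts against dividing cells. At 4 days in vitro they were infected with adeno-associated virus (1800000 infectious units in each ml), which carried a control shRNA in 3 samples and an shRNA directed at Ncoa3, a coactivator of nuclear receptors, in the other 3 samples. RNA was taken at 14 days in vitro, and each of 3 experiments gave 1 array per group. All samples therefore shared the drug, the virus type and the culture time, and a single Ncoa3 shRNA is named in the labels. The comparison asks what differs in these neurons when Ncoa3 is reduced. The design text speaks of biological replicates without saying whether animals were pooled.

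The arrays were checked first. Ncoa3 stood at 8.63, 8.72 and 8.22 with control shRNA and at 7.60, 7.60 and 7.45 with Ncoa3 shRNA, a log2 difference of -0.97 ± 0.142 (SE; limma's adjusted p = 0.00747). The call was lost without experiment 1 or without experiment 2 (adjusted p up to 0.134), which leaves 2 arrays a group. These and later values are log2 signals after quantile normalization, which gives every array the same distribution of signal, unless they are called deposited. Deposited array medians ranged from 7.08 to 7.25 with control shRNA and from 6.81 to 6.97 with Ncoa3 shRNA, and the median gene differed by -0.25 there against 0.01 after normalization. The top deposited value was 14.05 on the control arrays and 14.00 on the Ncoa3 shRNA arrays, and 19.5% and 19.8% of the probe sets had the same value on all 3 arrays of a group, so a processing step appears to be shared within each group and cannot be told apart from the shRNA. All 10 neuron markers were measured and lay above the median gene, with a mean signal per array from 12.24 to 12.37, and 1 of them rose and 0 fell. The marker that rose was Slc32a1, by 0.50 (limma's adjusted p = 0.0122, and up to 0.186 when an array or experiment was left out). Over all genes 10.5% were called higher and 9.04% lower.

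Aldh2, the mitochondrial enzyme that clears acetaldehyde and lipid-derived aldehydes, was the member with the largest difference. Its signal (probe set 17674085) was 8.94, 8.96 and 8.90 in the control arrays of experiments 1, 2 and 3 and 9.74, 9.92 and 9.73 in the Ncoa3 shRNA arrays. Every Ncoa3 shRNA array lay above every control array, and the arrays of experiment 2 were the highest of their group. The group means were 8.94 ± 0.0292 and 9.80 ± 0.109 (SD, n = 3 each), which is a difference of 0.86 ± 0.0763 (SE) or 1.82-fold, and the differences by experiment were 0.80, 0.96 and 0.83. No p-value is given for Aldh2, because this difference is why it was chosen.

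The deposited values of Aldh2 parted the groups in the same direction with a smaller gap. They were 9.10, 9.13 and 8.99 with control shRNA and 9.66, 9.82 and 9.55 with Ncoa3 shRNA, and no value recurred within a group. The deposited difference was 0.60, with 0.56, 0.69 and 0.55 in the 3 experiments. The 500 genes nearest to Aldh2 in signal had a median deposited difference of -0.25, and Aldh2 stood 0.85 above it. Among the 9083 genes brighter than the median gene, Aldh2 ranked 2 by its difference after quantile normalization and 1 by its deposited difference. Over all genes its rank was 41. These ranks restate the choice of Aldh2 by this difference and support nothing further.

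**Figure D1:**
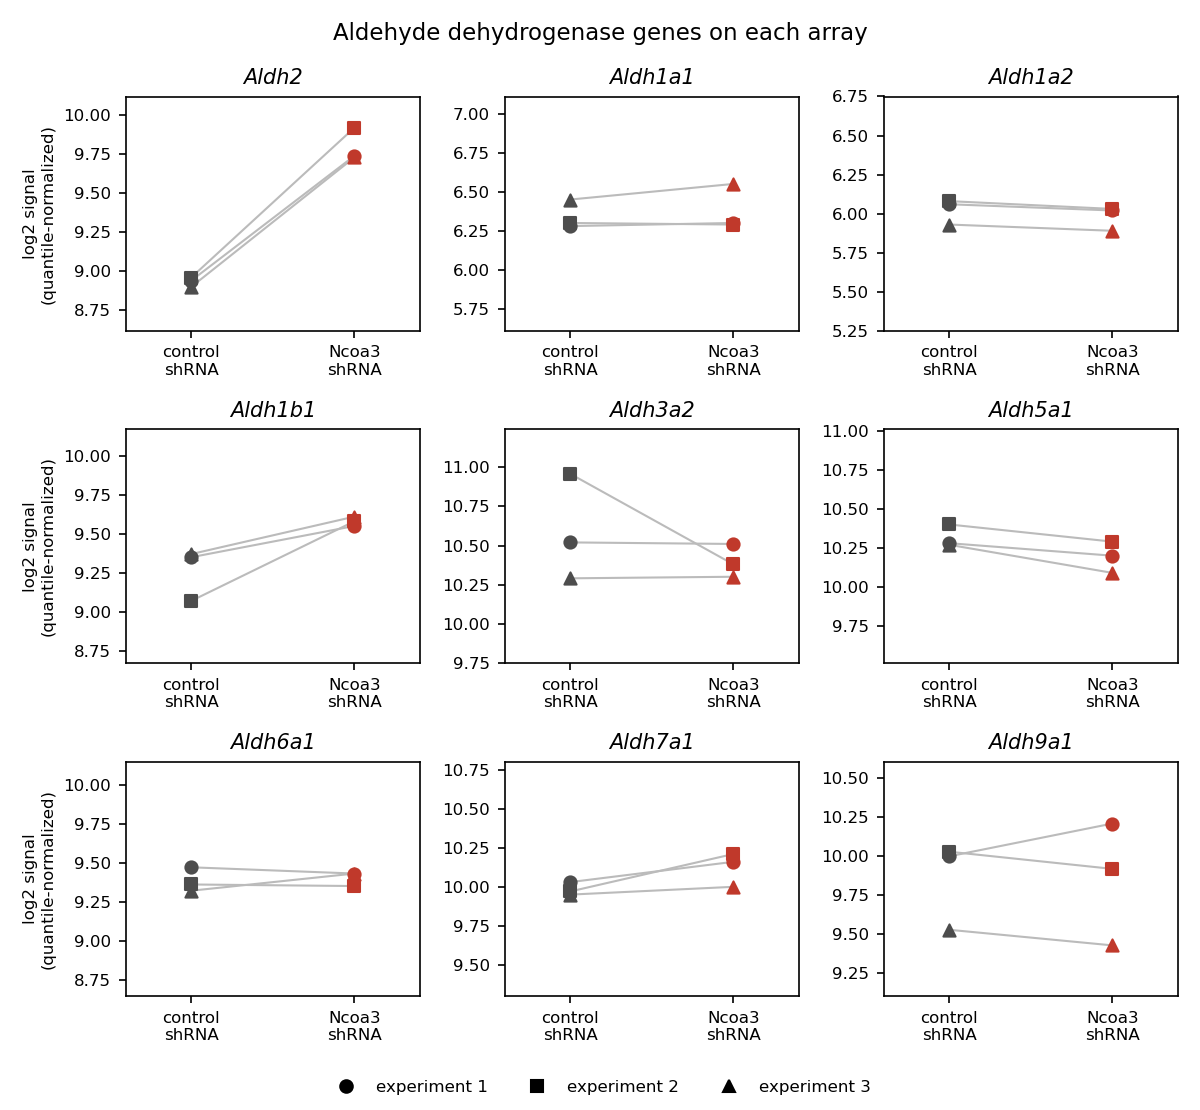
Log2 signal (quantile-normalized, vertical axes each spanning the same range) of the 9 measured members on the 6 arrays, with control shRNA on the left and Ncoa3 shRNA on the right of each panel. A grey line joins the 2 arrays of an experiment and the symbol gives its number. Aldh2 is higher at the right end of all 3 lines, from about 8.94 to 9.80 in the mean, Aldh1b1 lies higher with Ncoa3 shRNA without passing the test, and Aldh9a1 is lowest in experiment 3 of both groups.

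Of the other 8 measured members, 0 reached the threshold of 0.05 for limma's adjusted p, which 19.5% of all genes tested reached (10.5% as higher and 9.04% as lower). At an unadjusted p of 0.05, 1 of the 8 was past, a cut-off at which the share of all genes was not taken. Their median difference was 0.01, equal to that of all genes, with a range from -0.20 to 0.32. With the experiment as a block 0 of 8 passed as well, where 39.3% of all genes did.

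Aldh1b1, the second acetaldehyde dehydrogenase of the mitochondrial matrix and a close relative of Aldh2, came nearest to the threshold. Its signal was 9.35, 9.07 and 9.37 with control shRNA and 9.55, 9.58 and 9.61 with Ncoa3 shRNA. The groups did not overlap, which was so for 40.5% of all genes, and the control array of experiment 2 lay apart from the other control arrays. The difference was 0.32 ± 0.0974 (SE; 95% interval 0.08 to 0.55; limma's adjusted p = 0.0720, and 0.0523 with the block). In the deposited values the groups overlapped and the difference was 0.06, since 9.52, 9.24 and 9.43 with control shRNA stood against 9.47, 9.47 and 9.42. The difference between Aldh1b1 and Aldh2 was not tested.

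The retinaldehyde dehydrogenases Aldh1a1 and Aldh1a2, the members below the median gene in signal, had differences near 0. Aldh1a1, a cytosolic enzyme that makes retinoic acid and also oxidises the dopamine-derived aldehyde, read 6.28, 6.30 and 6.45 with control shRNA and 6.30, 6.29 and 6.55 with Ncoa3 shRNA. The groups overlapped, both arrays of experiment 3 were the highest, and the difference was 0.03 ± 0.0902 (SE; interval -0.19 to 0.25; adjusted p = 0.834). Aldh1a2, the retinoic acid maker of the embryo and the meninges, read 6.06, 6.08 and 5.93 against 6.02, 6.03 and 5.89, a difference of -0.04 ± 0.0649 (SE; interval -0.20 to 0.12; adjusted p = 0.697). Its groups overlapped too, although in the deposited values Aldh1a2 was 6.16 on all 3 control arrays and 5.82, 5.85 and 5.85 on the Ncoa3 shRNA arrays. The deposited difference of -0.32 passed limma's test (adjusted p = 8.76e-06) beside a control SD of 0, and the 500 genes nearest in signal had a median of -0.27 there. For a probe set this dim, a low level of RNA and background signal cannot be told apart.

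Aldh3a2, the fatty aldehyde dehydrogenase of the endoplasmic reticulum, had its difference in a single experiment. The signal was 10.52, 10.96 and 10.29 with control shRNA and 10.51, 10.38 and 10.30 with Ncoa3 shRNA. The groups overlapped, and the control array of experiment 2 was the highest. By experiment the differences were -0.01, -0.58 and 0.01, and the mean of -0.20 ± 0.171 (SE; interval -0.61 to 0.22) did not pass (adjusted p = 0.482). Without experiment 2 or without its control array the difference came to at most 0.00 and was no lower than -0.34 in any fit that left out an array or experiment.

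Aldh5a1, the succinic semialdehyde dehydrogenase that ends GABA breakdown in mitochondria, was lower in each experiment by a small amount. It read 10.28, 10.40 and 10.27 against 10.20, 10.29 and 10.09, with groups that overlapped, and its difference was -0.12 ± 0.0762 (SE; interval -0.30 to 0.07; adjusted p = 0.335). In the deposited values the groups did not overlap and the difference of -0.35 passed at an adjusted p of 0.0457. The median gene was 0.25 lower in those values, and 43.3% of all genes were called lower there. With Aldh1a2, Aldh5a1 made 2 of the 8 other members that passed in the deposited values, both as lower, beside 47.2% of all genes called in any direction. With the experiment as a block in the deposited values, Aldh1a1 and Aldh6a1 passed as lower as well, 4 of 8 against 60.2% of all genes.

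Aldh9a1, which oxidises the aldehyde precursors of GABA and carnitine, varied more between experiments than between groups. The signal was 10.00, 10.03 and 9.53 with control shRNA and 10.21, 9.92 and 9.43 with Ncoa3 shRNA. Both arrays of experiment 3 lay below the other 4 arrays, and the groups overlapped. The difference was 0.00 ± 0.231 (SE; interval -0.56 to 0.56; adjusted p = 0.996), and by experiment it was 0.20, -0.11 and -0.10. The interval came from the fit without a block, so its width includes the spread between experiments that both groups shared.

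The members of amino acid breakdown differed by small amounts too. Aldh6a1, the methylmalonate semialdehyde dehydrogenase of valine breakdown, read 9.47, 9.36 and 9.32 with control shRNA and 9.43, 9.35 and 9.43 with Ncoa3 shRNA, a difference of 0.02 ± 0.0705 (SE; interval -0.15 to 0.19; adjusted p = 0.900). Aldh7a1, or antiquitin, which acts in lysine breakdown and whose loss in humans causes pyridoxine-dependent epilepsy, read 10.03, 9.97 and 9.95 against 10.16, 10.21 and 10.00. Its groups overlapped by the arrays of experiment 3 and experiment 1, and the difference was 0.14 ± 0.0741 (SE; interval -0.04 to 0.32; adjusted p = 0.243). Without experiment 3, Aldh7a1 passed at an adjusted p of 0.0489, and the share of all genes called in that fit was not taken.

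**Figure D2:**
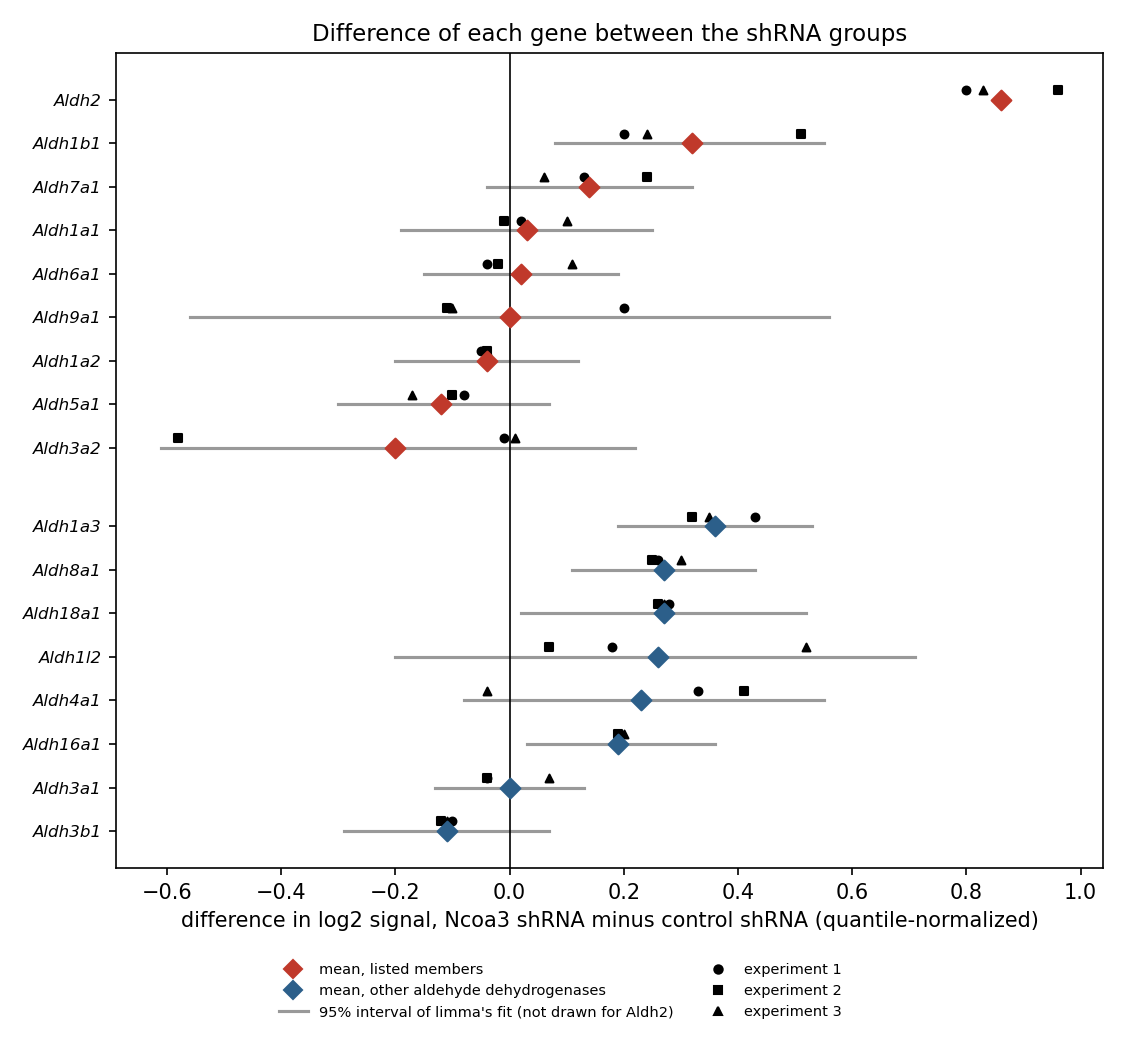
Difference in log2 signal between Ncoa3 shRNA and control shRNA (quantile-normalized; above 0 means higher with Ncoa3 shRNA) for the 9 measured members (red) and 8 other aldehyde dehydrogenases (blue). Diamonds are means over 3 experiments, bars 95% intervals of limma's fit (none for Aldh2), and small symbols the experiments. Aldh2 lies at 0.86, apart from the others, which range from -0.20 to 0.36.

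The rest of the family was taken from a list of 11 further genes, of which 8 were measured. Of these, 2 rose, 0 fell and 6 did not pass, beside the 10.5% and 9.04% of all genes, with a median of 0.24. Aldh1a3, the third retinaldehyde dehydrogenase, read 6.49, 6.60 and 6.44 with control shRNA and 6.92, 6.92 and 6.78 with Ncoa3 shRNA and rose by 0.36 ± 0.0697 (SE; limma's adjusted p = 0.0174). Aldh8a1, an enzyme of tryptophan breakdown, rose by 0.27 ± 0.0661 (SE; adjusted p = 0.0370). Its deposited value was 6.59 on all 3 control arrays, so its spread over the control arrays comes from the normalization alone. Both were dimmer than the median gene, and in the deposited values their differences were 0.08 and -0.01, neither past the test. Of the 9 fits that left out an array or an experiment, 5 lost the call of Aldh1a3 (adjusted p up to 0.287) and 6 that of Aldh8a1 (up to 0.338), in each case among them those without experiment 1 or experiment 2.

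Of the 6 that did not pass, 3 did with the experiment as a block, a fit that called 39.3% of all genes. Aldh18a1, which makes proline precursors in mitochondria, read 10.41, 10.51 and 10.24 against 10.69, 10.77 and 10.51, at 0.27 (adjusted p = 0.120, and 0.0109 with the block). The experiments gave 0.28, 0.26 and 0.27. Aldh16a1 stood at 0.19 (0.104, and 0.0105 with the block) and Aldh3b1 at -0.11 (0.360, and 0.0243 with the block). For Aldh16a1 and Aldh3b1 a single deposited value recurred on all 3 arrays within either group, so their spread comes from the normalization alone and their p-values do not measure variation between replicates. The proline-breakdown enzyme Aldh4a1 stood at 0.23, the mitochondrial folate enzyme Aldh1l2 at 0.26 and Aldh3a1 at 0.00, with adjusted p from 0.266 to 0.989. In the deposited values 3 of the 8 passed, all as lower, namely Aldh3a1 (-0.28), Aldh3b1 (-0.39) and Aldh16a1 (-0.09), beside the 43.3% of all genes. Aldh4a1 passed without experiment 3 or its Ncoa3 shRNA array, and Aldh3b1, Aldh16a1 and Aldh18a1 without experiment 3. The share of all genes called in those fits was not taken, so these passes cannot be read as particular to the family.

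**Figure D3:**
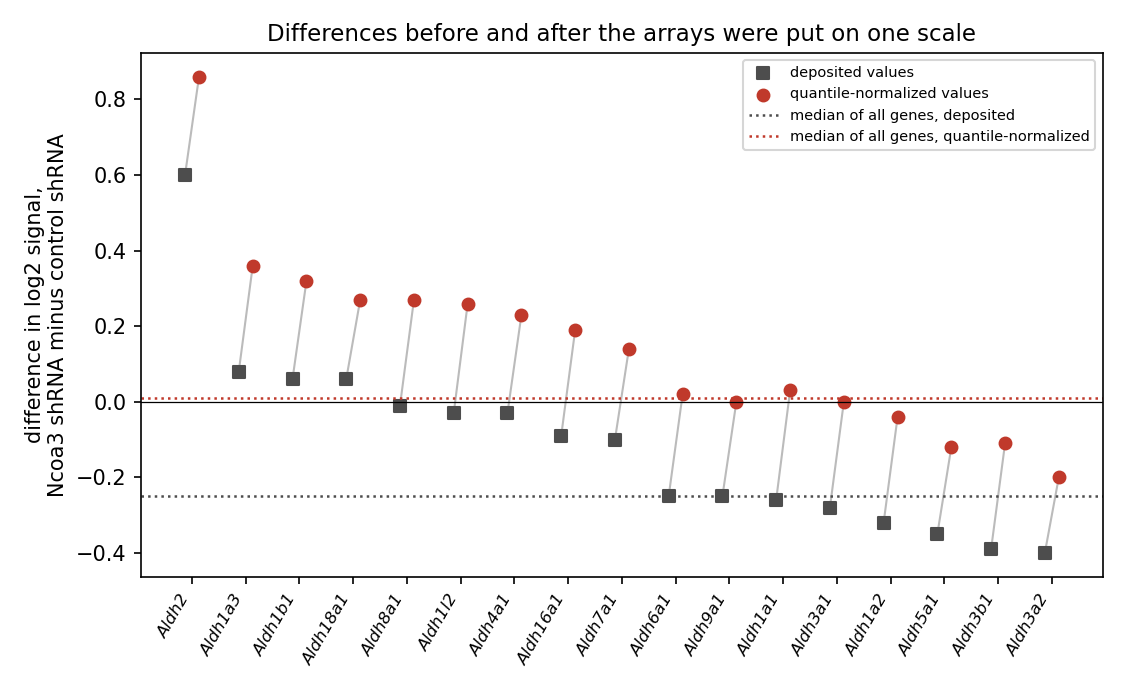
Difference in log2 signal between Ncoa3 shRNA and control shRNA of the 17 aldehyde dehydrogenases, in the deposited values (squares) and after quantile normalization (circles), with dotted lines at the median of all genes on each scale (-0.25 and 0.01). Each gene moves up by about the shift of the median gene, and Aldh2 is the highest on both scales, at 0.60 and 0.86.

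How the members varied between experiments does not enter the choice of Aldh2, since each experiment held an array of both groups. In limma's test of the experiment, fitted with the group as a term, 1 of the 9 members passed, where 18.8% of all genes did. At an unadjusted p of 0.05, 3 were past, and the share of all genes at that cut-off was not taken. The member that passed was Aldh1a2 (adjusted p = 0.0484), with means of 6.04, 6.06 and 5.91 over both groups in experiments 1, 2 and 3. Its deposited value was the same on all control arrays, and its deposited means were 5.99, 6.01 and 6.01. The lower experiment 3 was thus seen in the normalized values and not in the deposited ones. Aldh3b1, with 1 deposited value within each group, had the same adjusted p of 0.0484 in this test. Such a call, and the share of all genes, cannot be read as variation between replicates alone. None of the 9 passed in the deposited values, where 1.91% of all genes did. There 4 members were past an unadjusted p of 0.05, again without a share of all genes at that cut-off. Aldh9a1, at 10.11, 9.98 and 9.48, had the widest means and did not pass (adjusted p = 0.0521). Aldh1a1 was at 6.29, 6.30 and 6.50 (adjusted p = 0.0524) and Aldh2 at 9.34, 9.44 and 9.32 (adjusted p = 0.330). Of the 9 members 6 were lowest in experiment 3, and 6 were in the deposited values. The share of all genes lowest in experiment 3 was not taken, so this count cannot be read as particular to the members.

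The patterns most like that of Aldh2 were those of Mrto4, Tmod4, Fn1, Tmem44 and Kcnk12, among genes brighter than the median gene. The measure was the root mean square difference between the signals of 2 genes over the 6 arrays, each gene centred on its own mean, and it was 0.0844 for Mrto4, 0.110 for Tmod4, 0.124 for Fn1, 0.143 for Tmem44 and 0.149 for Kcnk12. Within the family the smallest was 0.257, of Aldh1a3, followed by 0.302 for Aldh1b1, the genes with the largest differences after Aldh2 (0.36 and 0.32). The measure includes the group difference by which Aldh2 was chosen, so genes with a similar rise come first. It supports nothing further. Mrto4, Tmod4, Fn1, Tmem44 and Kcnk12 differed by 0.72, 0.78, 0.65, 0.60 and 0.62. Fn1 had 1 deposited value within each group, and Kcnk12 had 1 on all control arrays. Beside Aldh2 on its chromosome, in the gene order of RefSeq (assembly GRCr8), the nearest measured genes were Atxn2 and Sh2b3 on the side before it and Mapkapk5 and Adam1a on the side after it. They differed by -0.11, -0.11, -0.08 and -0.09, and none of them passed (adjusted p from 0.0839 to 0.476), although Sh2b3 did without experiment 3 (adjusted p = 0.0454). The share of all genes called without experiment 3 was not taken. All 4 neighbours passed as lower in the deposited values, at -0.39, -0.25, -0.34 and -0.36 for Sh2b3, Atxn2, Mapkapk5 and Adam1a (adjusted p from 2.37e-06 to 0.0300), as did 43.3% of all genes. Adam1a, with the lowest of these, had 1 deposited value within each group, so its p-value does not measure variation between replicates. The 4 neighbours were looked up after the value of Aldh2 was known.

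**Figure D4:**
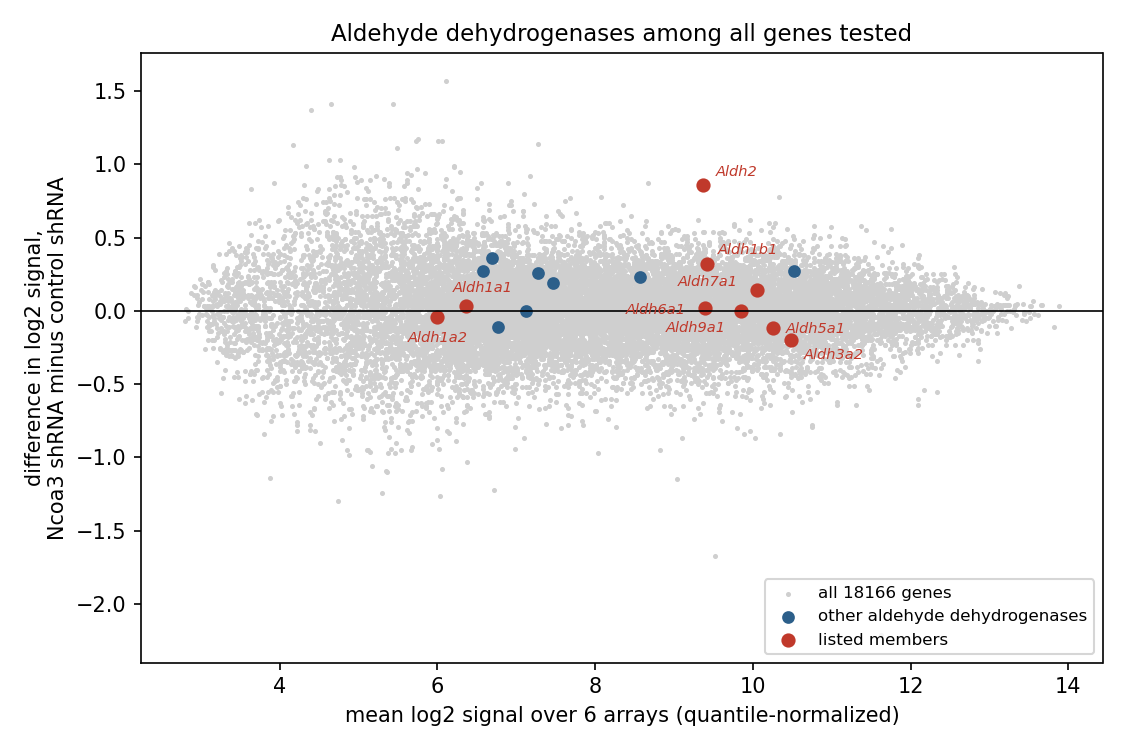
Difference in log2 signal between Ncoa3 shRNA and control shRNA against mean log2 signal (both quantile-normalized) for the 18166 genes (grey), the 9 members (red, named) and 8 other aldehyde dehydrogenases (blue). Aldh2 lies at the upper edge of the genes of its signal and the other members lie within the bulk.

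Genes that make aldehydes or remove them by other routes were measured for 21 of 26 listed alcohol dehydrogenases, amine oxidases and reductases. Of these, 1 rose, 1 fell and 19 did not pass, with a median of 0.09, beside 10.5% of all genes called higher and 9.04% lower. The aldehyde oxidase gene Aox1 rose by 0.27 (limma's adjusted p = 0.0384) and stood at -0.01 in the deposited values, and the alcohol dehydrogenase gene Adh6 fell by 0.31 (adjusted p = 0.00600). Both probe sets were dimmer than the median gene. Leave-one-out fits ended the call of Aox1 in 7 of 9 (adjusted p up to 0.360) and that of Adh6 in 2 (up to 0.155). For these and all genes named from the lists that follow, the fits without experiment 1 and without experiment 2 were among those that ended the call.

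Of 24 measured genes of retinoic acid handling, 2 rose, 3 fell and 19 did not pass, with a median of 0.04. Over all genes 10.5% were called higher and 9.04% lower. Rdh10, the retinol dehydrogenase that feeds the retinaldehyde dehydrogenases, read 9.41, 9.46 and 9.33 with control shRNA and 9.75, 9.69 and 9.67 with Ncoa3 shRNA, and rose by 0.31 (limma's adjusted p = 0.0246). Cyp26b1, which degrades retinoic acid, read 7.78, 7.79 and 7.99 against 8.26, 8.35 and 8.50, and rose by 0.52 (adjusted p = 0.0152). The receptor gene Rarb, dimmer than the median gene, fell by 0.42 (adjusted p = 0.0200), with the same deposited value on all 3 Ncoa3 shRNA arrays. In the deposited values Rdh10 stood at 0.05 and Cyp26b1 at 0.24, neither past the test, and 0 of the list were higher and 15 of 24 lower, beside 43.3% of all genes called lower and a median gene at -0.25. Among the 9 leave-one-out fits, Rdh10 was not called in 6, Cyp26b1 in 5 and Rarb in 6 (adjusted p up to 0.340, 0.223 and 0.246).

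Of 29 measured genes of the GABA, branched-chain, lysine and folate pathways that members serve, 3 rose, 3 fell and 23 did not pass, and with the block 4 rose and 8 fell. Over all genes 19.5% were called without the block and 39.3% with it, shares near those of this list. The largest difference was that of Aass, which starts the lysine route ahead of Aldh7a1. It read 6.60, 6.61 and 6.45 against 6.04, 6.03 and 6.11 and fell by 0.50 (limma's adjusted p = 0.00469; lost in 2 of the 9 fits, up to 0.154), with the same deposited value on all 3 control arrays. Aadat, of the same route, rose by 0.38 (adjusted p = 0.0252; lost in 6 fits, up to 0.244). Aass and Aadat were both dimmer than the median gene. Gad2, which makes the GABA that Aldh5a1 helps to clear, fell by 0.42 (adjusted p = 0.0349; lost in 7 fits, up to 0.225). Gad1, the other gene of the list that makes GABA, stood at 0.01 and did not pass. It was named after its value was seen.

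Of 25 measured genes of the oxidative stress response and glutathione, 4 rose, 1 fell and 20 did not pass, with a median of 0.04. Over all genes 10.5% were called higher and 9.04% lower. In the blocked fit 7 of the 25 rose and 4 fell, beside 39.3% of all genes called in that fit. Gpx4, which reduces the lipid peroxides from which aldehydes such as 4-hydroxynonenal form, read 10.07, 9.87 and 9.99 against 10.49, 10.70 and 10.54 and rose by 0.60 (limma's adjusted p = 0.00733; lost in 2 of the 9 fits, up to 0.113). The glutathione transferase gene Gstm1 rose by 0.40 (adjusted p = 0.0398; lost in 7 fits, up to 0.268) and Gstm2 fell by 0.65 (adjusted p = 0.0125; lost in 3 fits, up to 0.157). The probe set of Gstm2 was dimmer than the median gene. Of 28 measured genes of mitochondrial dehydrogenase complexes and matrix enzymes, 1 rose (Sdhb, at 0.21; adjusted p = 0.0465; lost in 7 fits, up to 0.419), 1 fell (Sucla2, at -0.40; adjusted p = 0.00907; lost in 3 fits, up to 0.207) and 26 did not pass. With the block 2 rose and 8 fell. The differences of these 28 ran from -0.45 to 0.21, with a median of -0.03. Over all genes 39.3% were called with the block. Sdhb in the deposited values stood at 0.03 (adjusted p = 0.753) and Gstm1 at 0.20 (adjusted p = 0.106), so neither passed there.

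Other cells that express aldehyde dehydrogenases could be present in such cultures, and in bulk RNA fewer cells of a type and less RNA per cell cannot be told apart. The marker counts that follow stand beside 10.5% of all genes called higher, 9.04% called lower and 39.3% called with the block. Astrocytes express Aldh2, and of 11 measured astrocyte markers 1 rose (Fgfr3) and 0 fell. The blocked fit called 1 as higher and 2 as lower, Slc1a2 and Slc4a4, both at -0.29 (adjusted p = 0.0235 and 0.0128) and named after their values were seen. Fgfr3 lost its call in 7 of the 9 leave-one-out fits (adjusted p up to 0.373) and stood at 0.01 in the deposited values. The astrocyte markers' mean signal ran from 9.15 to 9.52 over the control arrays and from 9.08 to 9.52 over the Ncoa3 shRNA arrays, and the defining marker Gfap stood at 0.18 (adjusted p = 0.562). Of 10 fibroblast or meningeal markers 2 rose (Fn1 at 0.65 and Dcn at 0.52) and 0 fell, and the mean signal was 8.40 to 8.56 against 8.60 to 8.74. With the block 4 rose and 1 fell. Dcn lost its call in 8 of the 9 leave-one-out fits (adjusted p up to 0.258), all but that without the control array of experiment 3, and in the deposited values (0.31; adjusted p = 0.0948). Fn1 had 1 deposited value, 8.27, on all control arrays and 1, 8.64, on all Ncoa3 shRNA arrays, so its p-value does not measure variation between replicates. Of 10 microglia markers, all dimmer than the median gene, 3 rose and 1 fell, with means of 6.22 to 6.25 against 6.35 to 6.52, and with the block 4 rose and 2 fell. Cx3cr1 rose by 0.99 (limma's adjusted p = 0.0205), more than Aldh2, and stood at 0.70 in the deposited values (adjusted p = 0.109). C1qb rose by 0.46 (adjusted p = 0.0111; deposited 0.18 and 0.260) and Aif1 by 0.43 (adjusted p = 0.0113; deposited 0.15 and 0.00645). Aif1 had 1 deposited value on all control arrays, so its p-values rest on little spread between replicates. Leave-one-out fits ended the calls of Cx3cr1, C1qb and Aif1 in 4, 3 and 3 of 9 (adjusted p up to 0.162, 0.182 and 0.180). Oligodendrocyte markers (2 of 9 rose and 2 fell, means 7.93 to 8.01 against 7.97 to 8.07) and endothelial markers (1 of 5 rose and 1 fell, 6.33 to 6.47 against 6.33 to 6.43) overlapped between the groups. The fibroblast and microglia means thus parted the groups as Aldh2 did, and so did 40.5% of all genes taken singly. The part of the fibroblast and microglia means in the difference of Aldh2 was not tested. In the deposited values, whose median gene lay at -0.25, both means overlapped between the groups. They were 8.52 to 8.71 against 8.45 to 8.64 for fibroblasts and 6.32 to 6.48 against 6.16 to 6.48 for microglia.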

How the data were processed

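RNA of 6 samples was measured on single-colour Affymetrix arrays, 3 per group. The authors deposited 1 log2 signal per probe set and array. The submitters' processing notes name Affymetrix Expression Console. Not given in the sources used here are its version, the summarisation, the normalization and the build. Of 36685 probe sets, 18511 had a single gene symbol in the platform annotation, which can be old, and the probe set with the highest mean was used per gene, which left 18166 genes. All probe sets were quantile-normalized, which removes a change common to most genes, and limma 3.58.1 (R 4.3.3) was fitted to all genes (lmFit, eBayes with a trend, two-sided, Benjamini-Hochberg over all genes, threshold 0.05), without a block. Intervals are at 95%. The fit was tested on simulated data. The p-values leave out any error between the processing of the groups, and shared deposited values can make SEs too small. The number of arrays limits the precision.

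Per the labels, arrays with 1 number come from 1 experiment, so the numbers pair the samples. Deviations from the group means correlated at 0.75, 0.56 and 0.80 between the arrays of an experiment and at -0.76 to 0.54 otherwise, over genes. The members and lists were chosen with earlier results of these data known. Named genes were the members, Ncoa3, the rest of the family, at most 3 genes per list with the largest difference among those past the threshold, and the 5 genes most like Aldh2; others are marked. The alternatives were the deposited values, median centring, cyclic loess, the mean of probe sets, a minimum mean signal of 6, no trend, the experiment as a block and leaving out arrays or experiments; quantile normalization over named genes was added after the data were seen.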

Additional observations from a re-analysis of the deposited data

How the results depend on the processing

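The difference of Aldh2 was 0.86 and stayed between 0.79 and 0.90 in the 9 fits that left out an array or an experiment. It was 0.60 in the deposited values, with or without the replicate block, and 0.85 to 0.88 in the other alternatives. The count of the other 8 members past limma's test was 0 and became 2 in the deposited values (47.2% of all genes) and 4 there with the replicate block (60.2% of all genes). It ran from 0 to 1 when an array or experiment was left out, and was 0 in the remaining alternatives, among them the replicate block after quantile normalization. The share of all genes in the fits that left out an array or experiment was not taken. The replicate block moved the rest of the family from 2 rises and 0 falls to 4 and 1, beside 39.3% of all genes called with it. Calls named in the report changed with the block where given there. The count of members differing between experiments was 1 and became 0 in the deposited values, with cyclic loess, without a trend, and with quantile normalization over named genes (chosen after seeing the data), 2 with median centring (Aldh1a1 and Aldh9a1), and 3 with a minimum mean signal of 6 (Aldh1a1, Aldh1a2 and Aldh9a1). It was 1 with the mean of probe sets and 0 in each fit without an experiment, which leaves 2 experiments. The cause of these changes was not tested.

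The deposited values, whose median gene lay at -0.25, turned the sign of Aldh1a1 (-0.26), Aldh6a1 (-0.25), Aldh7a1 (-0.10), Aldh16a1 (-0.09), Aldh1l2 (-0.03), Aldh4a1 (-0.03), Aldh8a1 (-0.01) and Aox1 (-0.01), with the replicate block too. Median centring turned Aldh9a1 to 0.03 and Atxn2 to 0.02, and cyclic loess turned Aldh6a1 to 0.00 from above 0. Leaving out arrays or experiments gave a range of -0.05 to 0.09 for Aldh1a1, -0.09 to 0.00 for Aldh1a2, -0.34 to 0.00 for Aldh3a2, -0.03 to 0.06 for Aldh6a1, -0.18 to 0.21 for Aldh9a1 and -0.04 to 0.02 for Aldh3a1. Signal over background limits Aldh1a1, Aldh1a2 and the dim members of the rest of the family.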
